A study of Bos taurus with 8 samples.

Results

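The enzymes described here break down amino acids or convert them into one another, most of them in liver. A list of 47 such genes was taken by symbol, and 44 of them were represented on the array by 1 probe each, out of 15008 distinct probes. UROC1 of the histidine pathway and MCCC2 and HIBCH of branched-chain amino acid breakdown had no probe under those symbols and were not analysed here. All 44 passed the filter on dim probes, which kept 10985 probes that were well above background on at least 4 of 8 arrays, and 43 of the 44 were well above background on all 8. The exception, the transaminase GPT2, was measured on 3 of 4 arrays at each dose.

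The samples were liver RNA of 4 Holstein bull cattle, numbered 19, 20, 23 and 24, out of a trial of 11 fistulated animals of 5 to 6 months. Every animal was challenged with a high-grain diet for 2 days that causes subacute ruminal acidosis (SARA), which is a fall of rumen pH in which bacterial lipopolysaccharide (LPS) is released, and was then returned to roughage. The 4 g group received 4 g per head per day of egg yolk immunoglobulin with antibody against LPS into the rumen, and the 0 g group received none. Both were sampled 2 days after the challenge, and the trial was a Latin square, so the same 4 animals gave 1 array at each dose. Both groups therefore carry the fistula, the diets and the challenge, and no unchallenged animal is among the arrays. The 2 g dose and the order in which an animal received the doses were not analysed here.

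Amino acids that are not used for protein lose their nitrogen by transamination or deamination, and their carbon skeletons pass to glucose, ketone bodies, fat or full oxidation. Hepatocytes hold the main pathways for phenylalanine, tyrosine, histidine, tryptophan, glycine and methionine, whereas branched-chain amino acids are transaminated mostly outside the liver. Several of these enzymes, such as tyrosine aminotransferase and tryptophan dioxygenase, are textbook targets of glucocorticoids and glucagon, and asparagine synthetase is a textbook target of the amino acid shortage response. In ruminants propionate from the rumen is the main source of glucose, with amino acids beside it.

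Each gene was read by 1 probe of 60 bases, and the probes the results turn on are shown by their first 30 bases, 5′ to 3′, to identify what was measured. HAL and AMDHD1 are shown because they belong to 1 pathway and lie close together on 1 chromosome. Both were higher at 4 g in animals 23 and 24, whereas in animals 19 and 20 AMDHD1 was lower and HAL slightly higher. TDO2 and MCCC1 are shown because with HAL they were the members higher at 4 g in every animal. ASNS is shown for the widest mean difference. HAAO and DBT are shown because they had the widest gaps between the dim arrays and the others, in opposite directions.
HAL: taactgtgccctcaagggaatttcaaggta
AMDHD1: catttgaggaaagaattgactgttctggga
TDO2: ttcctttacacggctgaatactgtgacagc
MCCC1: aaggtattctacaaagaaggttctcaggcc
ASNS: taggattttacaggactatattgaacatca
HAAO: tctgagcagtacagaacgggaaagcccaac
DBT: ctatctggaaaagcaaacaggagctatact
In the deposited files these probes lie, on the cattle assembly UMD 3.1, at chr5:60618663-60618722 on the minus strand for HAL, chr5:60600314-60601951 on the plus strand for AMDHD1, chr17:44378024-44378083 (minus) for TDO2, chr1:84633082-84633141 (plus) for MCCC1, chr4:15036061-15036644 (minus) for ASNS, chr11:25190029-25190372 (minus) for HAAO and chr3:43214044-43214103 (plus) for DBT. The intervals of AMDHD1, ASNS and HAAO are longer than their 60-base probes. The files give no exon or UTR annotation. Member probes lay on 20 chromosomes, and 3 pairs were close together. AMDHD1 and HAL were 16.7 kb apart, the serine dehydratase genes SDSL and SDS 29.4 kb apart, and DMGDH and BHMT 157 kb apart.

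A level below is the log2 of the signal after the 75th percentile of its array was set to 0, so that 1 unit is a doubling, and levels of different probes are not compared. Brightness, taken as the 75th percentile of an array, was lowest in animal 19 at 4 g (125.8) and in animal 20 at 0 g (126.3), and these arrays are called dim below. It was between 218.0 and 311.7 on the other 6. Hepatocyte markers were measured on every array, with 16 of 17 well above background and list means of 5.25 to 5.84. Of 21 squamous and rumen epithelium markers, 6 to 11 were well above background at means of −6.71 to −4.89, although the extraction text in the labels names rumen epithelium. All 18 pancreatic acinar markers were well above background on the 0 g array of animal 23, at a mean of 6.88, against 5 to 15 of 18 and means of −5.64 to −3.89 on the other arrays. Animals 19 and 20 lay in 1 row of the slide and animals 23 and 24 in the other.

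The pairing of arrays by animal also had a limit in the values. Across the array, 60 probes fell into 2 clearly separate levels, more than 2 log2 units apart with at least 2 arrays in each, and 40 of them set the dim arrays alone apart. Both arrays of every animal shared a level in 6 of the 60. In 9, the 0 g arrays of animals 23 and 24 shared a level that their 4 g arrays did not, whereas 0 probes set both arrays of animal 23 apart from both arrays of animal 24. Whether the animal or dose labels of these 4 arrays are right was not tested. They are used here as given, and the results are stated for each pair of animals as well as for all 4. Stating them by pair does not remove the doubt, which lies within the pair of animals 23 and 24. If its 0 g arrays came from the same animal and its 4 g arrays from the other, its dose differences would be differences between animals. Since liver was measured in bulk, fewer cells of a type and less RNA per cell cannot be told apart.

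The first comparison asked whether the antibody dose changed the level of these enzymes within an animal. With limma and Benjamini-Hochberg adjustment over all tested probes, 0 of 44 enzymes differed between 4 g and 0 g, and 0% of all probes did. At an unadjusted p under 0.05, 0 of 44 enzymes passed against 1.09% of all probes, and the smallest adjusted p of an enzyme was 1. The levels at 4 g were above 0 g on average for 30 of 44 enzymes, where 55.1% of all probes were, and the median difference was 0.15 for the enzymes and 0.03 for all probes. In 3 enzymes (HAL, TDO2 and MCCC1) the 4 g array was the higher in 4 of 4 animals, which held for 3.17% of all probes, and in 0 enzymes it was the lower in 4 of 4, against 2.08%. The levels of the doses overlapped in all 44 enzymes, while they were separate for 0.611% of all probes.

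The precision of these differences varied from gene to gene. The 95% interval reached between 0.519 and 1.80 log2 units to either side of the estimate, with a median of 0.77. For 19 of 44 enzymes the whole interval lay within 1 log2 unit of 0, which bounds the mean change to less than a doubling or halving. That share was lower than the 64.3% of all probes. Among these bounded enzymes were FAH, SHMT1, AMT, DMGDH, GNMT, CTH, BCKDHA and BCKDHB.

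**Figure D1:**
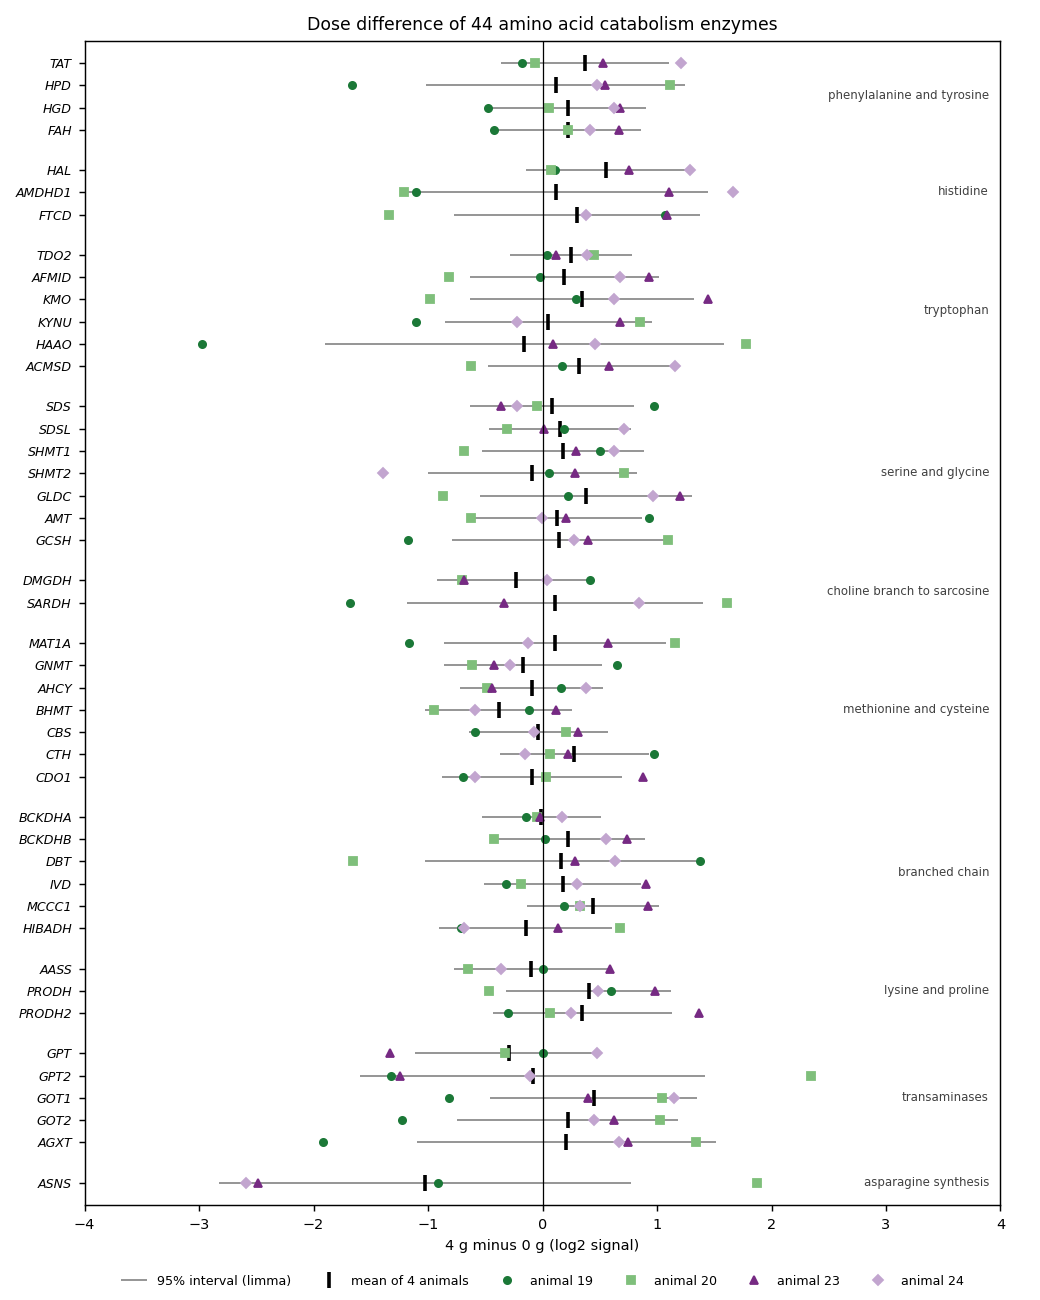
Difference between 4 g and 0 g in log2 signal (x axis) for the 44 enzymes, grouped by pathway, with the mean of 4 animals (black tick), its 95% interval from limma (grey line) and each animal's own difference (symbols). Every grey line crosses 0, and the purple symbols of animals 23 and 24 lie right of 0 together for 25 of the 44 enzymes.

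The higher levels at 4 g were counted mostly in 1 pair of animals. In animal 23 the 4 g array was the higher for 35 of 44 enzymes with a median difference of 0.47, and in animal 24 for 30 of 44 with a median of 0.38. Hepatocyte markers moved with the enzymes in animal 24, where their mean was 5.25 at 0 g and 5.68 at 4 g. They did not in animal 23, where it was 5.40 and 5.34. Their median deviation from each marker's own mean was highest on the dim arrays of animals 19 and 20, at 0.52 and 0.41. It was between −0.43 and 0.13 on the other 6 arrays. The part of the markers in the result was not tested. In animal 19 the 4 g array was higher for 21 of 44 enzymes (median −0.07) and in animal 20 for 22 of 44 (median −0.01). Over all tested genes with a name, by the brightest probe of each, the median differences were 0.10, −0.05, −0.01 and 0.10 in animals 19, 20, 23 and 24. Both animals 23 and 24 had higher levels at 4 g for 25 of 44 enzymes, where 27.3% of all probes did, and both had lower levels for 4, SDS, GNMT, GPT2 and ASNS, against 18.8%. Both animals 19 and 20 had higher levels for 5 of 44 enzymes, near the 13.1% of all probes, and lower levels for 6, near the 11.1%.

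Fitted on animals 23 and 24 alone, the median difference was 0.35, with 34 enzymes higher and 10 lower. Over all probes the median was 0.03, and 54.1% were higher. In that fit 8 of 44 enzymes had an unadjusted limma p under 0.05, where 4.11% of all probes did, and 0 passed after adjustment. With so few animals, these p-values rest mostly on the variance that limma pooled over all probes. The 8 were TAT, HAL, AMDHD1, AFMID, KMO, ACMSD and GLDC with higher levels and ASNS with a lower level at 4 g. Fitted on animals 19 and 20 alone, the median was −0.12, with 12 enzymes higher and 32 lower. Over all probes it was 0.01, and 51.7% were higher. In that fit 0 of 44 enzymes and 16 of 10985 probes had an unadjusted limma p under 0.05. Its SEs were wider, for example 0.60 for HAL against 0.30 in animals 23 and 24, so the counts of the pairs are not alike in precision. These pairs are also the rows of the slide, and both dim arrays belong to animals 19 and 20, 1 at each dose. Animal, slide row, brightness and any period in which they were treated therefore cannot be told apart. The doubt about the labels of animals 23 and 24, given above, applies here too. Whether the differences in animals 23 and 24 are between doses or between animals was not tested. The 0 g array of animal 23 was lowest of all arrays for 14 of 44 enzymes and also held the pancreatic transcripts, whose part in the result was not tested. Without that array, and without the animal block, the median was 0.08.

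**Figure D2:**
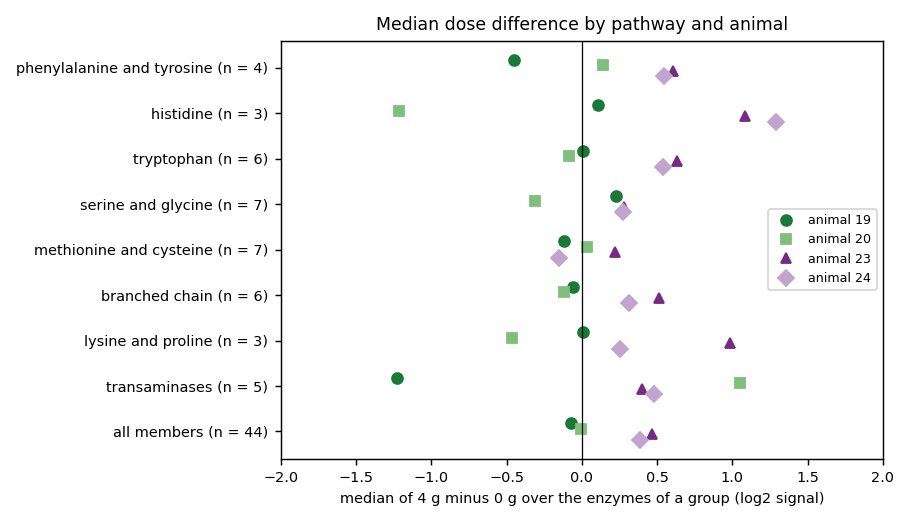
Median difference between 4 g and 0 g in log2 signal (x axis) over the enzymes of each pathway with at least 3 measured enzymes and over all 44, 1 symbol per animal. Animals 23 and 24 lie right of 0 in every pathway except methionine and cysteine, where animal 24 is at −0.15, while animals 19 and 20 lie on both sides.

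The test of the difference between the pairs (dose by slide row, limma) passed adjustment for 0 enzymes and for 0% of all probes. Its unadjusted p was under 0.05 for 2 of 44 enzymes, AMDHD1 and ASNS, against 0.983% of all probes. These counts depended on the background correction. With normexp the unadjusted limma p was under 0.05 for 4 of 44 enzymes, with SDS and SDSL added, and for 2140 of 10985 probes. Higher at 4 g in animals 23 and 24 and lower in animals 19 and 20 were 4 enzymes, TAT, AMDHD1, AFMID and IVD, a pattern that 2.23% of all probes had.

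Histidine breakdown starts with HAL, histidine ammonia-lyase, which removes ammonia to give urocanate. HAL stood at 1.24, 1.21, −0.58 and −0.31 at 0 g and at 1.35, 1.28, 0.17 and 0.97 at 4 g in animals 19, 20, 23 and 24. The levels of animals 19 and 20 were alike at both doses and above every array of the other animals, and within animals 23 and 24 the 4 g array was the higher. The means were 0.39 ± 0.97 at 0 g and 0.94 ± 0.54 at 4 g (SD, n = 4), a difference of 0.56 with an SE of 0.29, a 95% interval of −0.14 to 1.26 and an adjusted p of 1 from limma. In animals 19 and 20 alone the difference was 0.09, and in animals 23 and 24 alone 1.02. Of the 44 enzymes HAL was the 1 with an unadjusted p under 0.05 between animals (limma F-test, adjusted p = 0.985), where 2.71% of all probes passed.

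AMDHD1, the imidazolonepropionase of the same pathway, had opposite differences in the pairs of animals. It stood at −3.20, −2.64, −4.83 and −4.57 at 0 g and at −4.30, −3.85, −3.72 and −2.91 at 4 g. Animals 19 and 20 were the higher pair at 0 g, and at 4 g they were the lower pair, so the doses overlapped fully. The mean difference was 0.11 (SE 0.55), which averages −1.10, −1.21, 1.11 and 1.66 in animals 19, 20, 23 and 24. The difference between the pairs was 2.54 (SE 0.57) with an adjusted limma p of 1. AMDHD1 was named after its values had been seen.

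FTCD, the formiminotransferase that passes the last one-carbon unit of histidine to folate, stood at 5.11, 6.05, 4.26 and 5.00 at 0 g and at 6.18, 4.71, 5.35 and 5.38 at 4 g. Its highest levels were on the dim arrays of animals 19 and 20, which averaged 1.15 above the other 6. The mean difference was 0.30 (SE 0.44). Of the 3 measured histidine enzymes, 0 passed the test, and all had mean differences above 0 with a median of 0.30. Per animal, the median was 0.11, −1.21, 1.09 and 1.29 in animals 19, 20, 23 and 24.

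**Figure D3:**
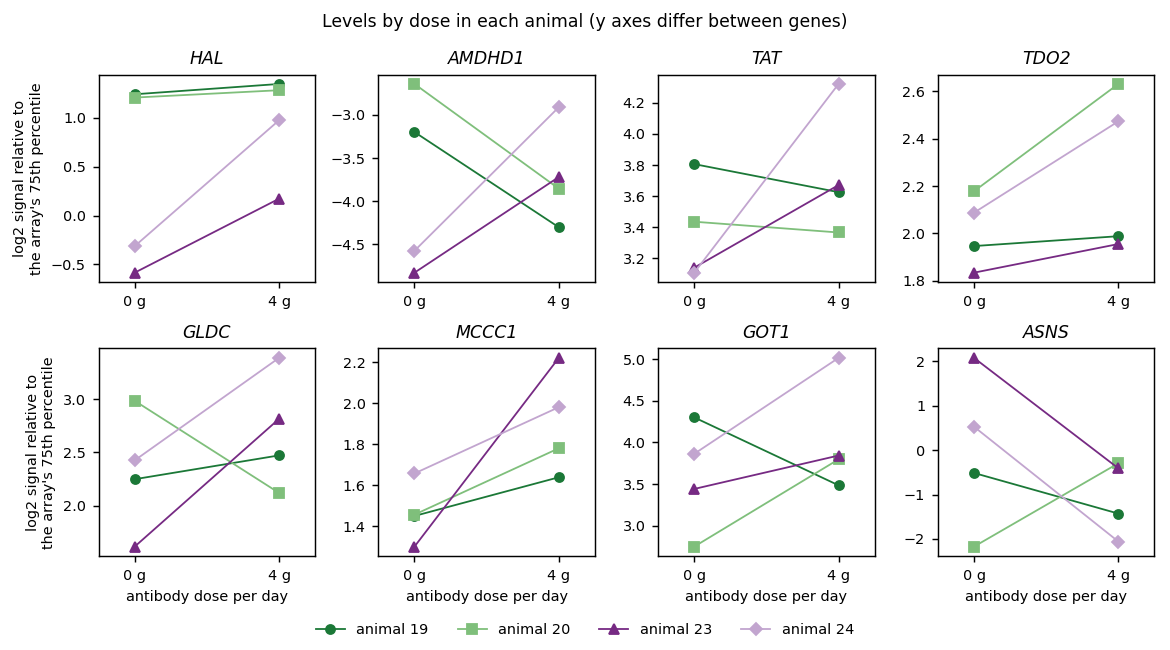
Log2 signal relative to the array's 75th percentile (y axis, different for each gene) at 0 g and 4 g for 8 enzymes, with 1 line per animal. HAL, TDO2 and MCCC1 have 4 lines that go up, AMDHD1 has crossing pairs, and ASNS goes down in animals 19, 23 and 24 and up in animal 20.

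Tyrosine breakdown starts with TAT, tyrosine aminotransferase, which stood at 3.81, 3.44, 3.14 and 3.11 at 0 g and at 3.63, 3.37, 3.67 and 4.32 at 4 g. The 0 g arrays of animals 23 and 24 were the lowest of the 8, and the 4 g array of animal 24 was the highest. The mean difference was 0.37 (SE 0.30, 95% interval −0.36 to 1.11), which averages −0.18, −0.07, 0.53 and 1.21 in animals 19, 20, 23 and 24. FAH, the fumarylacetoacetase that ends the pathway, stood at 2.45, 1.95, 1.66 and 2.09 at 0 g and at 2.02, 2.17, 2.33 and 2.50 at 4 g. The highest 4 g level of FAH, in animal 24, was close to the 0 g level of animal 19, and the doses overlapped. Its mean difference was 0.22 (SE 0.26). The enzymes between them, HPD and HGD, ranged over the 8 arrays from 0.57 to 2.23 and from 4.78 to 5.81. All 4 enzymes had mean differences above 0, with a median of 0.22, and 0 of 4 passed the test. The median of the 4 was −0.45 in animal 19 and 0.14, 0.61 and 0.55 in animals 20, 23 and 24.

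Tryptophan enters the kynurenine pathway through TDO2, tryptophan 2,3-dioxygenase. TDO2 stood at 1.95, 2.18, 1.83 and 2.09 at 0 g and at 1.99, 2.63, 1.96 and 2.47 at 4 g. Every animal was higher at 4 g, by 0.04, 0.45, 0.12 and 0.39 in animals 19, 20, 23 and 24, while the ranges overlapped because animals 20 and 24 were the higher at both doses. The means were 2.01 ± 0.15 and 2.26 ± 0.34 (SD, n = 4), and the difference of 0.25 had an SE of 0.22, a 95% interval of −0.28 to 0.78 and an adjusted limma p of 1. TDO2 had the same difference of 0.25 in animals 19 and 20 alone and in animals 23 and 24 alone.

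KMO, the kynurenine hydroxylase, stood at 0.87, 0.84, 0.28 and 1.40 at 0 g and at 1.15, −0.14, 1.73 and 2.03 at 4 g. Its lowest level was the 4 g array of animal 20 and its highest the 4 g array of animal 24. KMO had a mean difference of 0.34 (SE 0.41). ACMSD, which diverts the pathway away from NAD synthesis, stood at 0.87, 0.09, −0.50 and −0.13 at 0 g and at 1.04, −0.53, 0.09 and 1.03 at 4 g. It was high in animal 19 at both doses and in animal 24 at 4 g, and its mean difference was 0.32 (SE 0.33).

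HAAO is the dioxygenase that forms the precursor of quinolinate. It stood at 1.58, −0.43, 0.86 and 0.73 at 0 g and at −1.39, 1.34, 0.96 and 1.19 at 4 g. The dim arrays of animals 19 and 20 were the lowest and averaged 2.02 below the other 6. The difference was −2.97 in animal 19, 1.78 in animal 20, and 0.09 and 0.46 in animals 23 and 24, with a mean of −0.16 (SE 0.72) that became 0.10 with brightness as a covariate. AFMID and KYNU, the formamidase and the kynureninase, ranged from −3.29 to −2.07 and from −0.54 to 1.04. Of the 6 enzymes 5 had mean differences above 0, with a median of 0.22, and 0 passed the test.

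Serine is deaminated by SDS, serine dehydratase, a gluconeogenic enzyme. SDS stood at −5.74, −4.15, −3.87 and −4.13 at 0 g and at −4.77, −4.20, −4.23 and −4.35 at 4 g. The 0 g array of animal 19 was far below the others, and animal 19 was the lowest at each dose. The mean difference was 0.08 (SE 0.30), and it was above 0 in animal 19 alone. SHMT1, the cytosolic serine hydroxymethyltransferase, stood at 4.56, 5.33, 4.71 and 4.49 at 0 g and at 5.06, 4.65, 5.00 and 5.11 at 4 g, a difference of 0.18 (SE 0.29). Animal 20 was the 1 with a lower SHMT1 level at 4 g.

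The glycine cleavage system oxidises glycine in mitochondria. GLDC, its decarboxylase, stood at 2.25, 2.98, 1.61 and 2.42 at 0 g and at 2.47, 2.12, 2.81 and 3.39 at 4 g. The 0 g array of animal 23 was the lowest and the 4 g array of animal 24 the highest, and the mean difference was 0.38 (SE 0.38), with −0.87 in animal 20 and 1.20 in animal 23 at the ends. AMT, its aminomethyltransferase, stood at 0.67, 0.66, 0.11 and 0.18 at 0 g and at 1.60, 0.04, 0.32 and 0.18 at 4 g, with 1 high level on the dim array of animal 19. GCSH, its lipoyl carrier, stood at 1.90, 0.68, 1.81 and 2.15 at 0 g and at 0.73, 1.77, 2.21 and 2.43 at 4 g. Both dim arrays were lowest for GCSH, 1.34 below the other 6 on average. Whether AMT and GCSH differed in profile was not tested. The mean differences were 0.13 (SE 0.30) for AMT and 0.15 (SE 0.39) for GCSH. SDSL and SHMT2, a serine dehydratase-like protein and the mitochondrial hydroxymethyltransferase, ranged from −3.86 to −3.15 and from 1.06 to 2.80. Of the 7 serine and glycine enzymes 6 had mean differences above 0, with a median of 0.15, and 0 passed.

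DMGDH and SARDH, the dehydrogenases that take dimethylglycine to sarcosine and sarcosine to glycine, had mean differences of opposite sign, each smaller than its SE. DMGDH stood at 0.23, 0.92, 0.46 and 0.04 at 0 g and at 0.65, 0.21, −0.23 and 0.08 at 4 g, a difference of −0.23 (SE 0.28). SARDH stood at −1.97, −3.73, −2.70 and −3.34 at 0 g and at −3.65, −2.12, −3.03 and −2.50 at 4 g, a difference of 0.11 (SE 0.54). The dim arrays were below the other 6 for SARDH and above them for DMGDH.

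Methionine is activated by MAT1A, used for methylation by GNMT among others, and regenerated from homocysteine by BHMT. GNMT stood at 0.57, 1.73, 0.48 and 0.59 at 0 g and at 1.22, 1.11, 0.06 and 0.30 at 4 g. The 0 g array of animal 20 was the highest, the dim arrays averaged 0.95 above the other 6, and the mean difference was −0.17 (SE 0.29). BHMT stood at 4.32, 4.63, 3.54 and 4.29 at 0 g and at 4.20, 3.69, 3.66 and 3.70 at 4 g. At 4 g, 3 of the 4 levels lay within 3.66 and 3.70, whereas 3 of the 4 levels at 0 g were above every 4 g level and the 0 g array of animal 23 was the lowest of all. The means were 4.20 ± 0.46 and 3.81 ± 0.26 (SD, n = 4), and the difference was −0.38 (SE 0.27, 95% interval −1.03 to 0.26, adjusted limma p of 1). It was −0.53 in the first pair of animals alone, −0.23 in the second pair alone, and −0.60 without the 0 g array of animal 23 and without the block.

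Cysteine is made through CBS and CTH and oxidised by CDO1. CTH, the gamma-lyase that releases cysteine, stood at −1.21, −1.50, −0.95 and −0.63 at 0 g and at −0.24, −1.43, −0.73 and −0.78 at 4 g. The dim 4 g array of animal 19 was the highest, and without the dim arrays and the block the difference of 0.28 (SE 0.27) became −0.05. MAT1A ranged from 1.68 to 3.07, AHCY from 4.51 to 5.33, CBS from −0.21 to 0.56 and CDO1 from 2.16 to 3.75. The methionine and cysteine enzymes had 2 mean differences above 0 and 5 below, with a median of −0.09, and 0 of 7 passed. This was the pathway with the largest number of members below 0.

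Branched-chain keto acids are oxidised by a dehydrogenase complex made of BCKDHA, BCKDHB and DBT together with a shared subunit. BCKDHA stood at 2.85, 2.79, 3.10 and 2.51 at 0 g and at 2.70, 2.74, 3.07 and 2.68 at 4 g. It was the most even of the 44 enzymes, and its difference of −0.01 had the narrow 95% interval of −0.53 to 0.51. BCKDHB stood at 2.03, 2.61, 1.84 and 2.09 at 0 g and at 2.05, 2.19, 2.58 and 2.65 at 4 g, a difference of 0.22 (SE 0.28). Animals 23 and 24 were higher at 4 g, and animal 20 was lower. DBT stood at −1.44, 0.01, −2.09 and −2.10 at 0 g and at −0.07, −1.64, −1.81 and −1.47 at 4 g. Both dim arrays were above the other 6, by 1.73 on average, and its difference was 0.16 (SE 0.49). Whether the profiles of the 3 subunits differed was not tested.

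MCCC1, a subunit of the carboxylase of leucine breakdown, stood at 1.45, 1.46, 1.30 and 1.66 at 0 g and at 1.64, 1.78, 2.22 and 1.98 at 4 g. Every animal was higher at 4 g, by 0.19, 0.32, 0.92 and 0.32 in animals 19, 20, 23 and 24, and the ranges met only where the 0 g level of animal 24 exceeded the 4 g level of animal 19. The means were 1.47 ± 0.15 and 1.91 ± 0.25 (SD, n = 4), and the difference of 0.44 had an SE of 0.24, a 95% interval of −0.14 to 1.02 and an adjusted limma p of 1. It was 0.26 in animals 19 and 20 alone, 0.62 in animals 23 and 24 alone and 0.53 without the dim arrays and the block. IVD, the isovaleryl-CoA dehydrogenase, and HIBADH of valine breakdown ranged from 2.41 to 3.31 and from 1.14 to 2.56. Of the 6 branched-chain enzymes 4 had mean differences above 0, with a median of 0.17, and 0 passed.

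PRODH, proline dehydrogenase, stood at 1.29, 0.95, 0.33 and 1.19 at 0 g and at 1.89, 0.48, 1.31 and 1.68 at 4 g, and its mean difference of 0.40 (SE 0.30) came from higher levels in every animal but 20. PRODH2, which acts on hydroxyproline, stood at 1.23, 0.96, 0.07 and 0.85 at 0 g and at 0.93, 1.03, 1.44 and 1.10 at 4 g, a difference of 0.35 (SE 0.32). The 0 g array of animal 23 was the lowest for both. AASS, which opens lysine breakdown, ranged from −3.17 to −2.14. Of these 3 enzymes 0 passed the test, and their median difference was 0.35.

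The transaminases move amino groups between amino acids and keto acids. GOT1, the cytosolic aspartate aminotransferase, stood at 4.30, 2.75, 3.44 and 3.86 at 0 g and at 3.48, 3.80, 3.84 and 5.01 at 4 g. The lowest level was the dim array of animal 20 and the highest the 4 g array of animal 24, and the difference was 0.45 (SE 0.38), with a lower 4 g level in animal 19 alone. GPT, an alanine aminotransferase, stood at −2.42, −2.34, −1.80 and −3.15 at 0 g and at −2.42, −2.67, −3.13 and −2.67 at 4 g, a difference of −0.30 (SE 0.34). The 0 g array of animal 23 was the highest for GPT. GPT2, the mitochondrial alanine aminotransferase, stood at −3.82, −6.90, −3.85 and −4.30 at 0 g and at −5.14, −4.56, −5.09 and −4.40 at 4 g, and it was not well above background on either dim array. Its difference of −0.08 (SE 0.62) therefore rests in part on bounds. GOT2 and AGXT ranged from 1.55 to 3.06 and from −1.21 to 0.71. The median of the 5 was −1.23 in animal 19 and 1.05 in animal 20, whose brightness changed in opposite directions between the doses, and 0.40 and 0.48 in animals 23 and 24. Of the 5, 3 had mean differences above 0, and 0 passed the test.

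ASNS, asparagine synthetase, makes an amino acid rather than breaking one down, and it had the widest mean difference of the 44. It stood at −0.51, −2.17, 2.08 and 0.53 at 0 g and at −1.43, −0.30, −0.41 and −2.06 at 4 g. The 0 g arrays of animals 23 and 24 were the highest of the 8, the lowest were the dim 0 g array of animal 20 and that of animal 24 at 4 g, and the doses overlapped. The means were −0.02 ± 1.79 and −1.05 ± 0.84 (SD, n = 4), a difference of −1.03 (SE 0.75, 95% interval −2.83 to 0.77, adjusted limma p of 1).

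The ASNS difference was −0.91, 1.88, −2.49 and −2.59 in animals 19, 20, 23 and 24. Fitted on animals 23 and 24 alone it was −2.54 (SE 0.27) with an adjusted limma p of 0.372, the lowest of its alternatives, which ranged up to 1. With so few animals, that SE rests mostly on the variance that limma pooled over all probes. It was also 0.27 for HPD, HGD, GCSH and AGXT. On animals 19 and 20 alone the ASNS difference was 0.48. The difference between the pairs was −3.02 (SE 0.99, adjusted limma p of 1). Its highest level was on the 0 g array of animal 23, where the pancreatic acinar markers averaged 6.88, and without that array and the block the difference was −0.33. In animal 24 the ASNS difference was wider than in animal 23, and the acinar markers averaged −4.47 at 0 g and −5.02 at 4 g. Of the 18 acinar markers, 14 were well above background in animal 24 at 0 g and 9 at 4 g. The part of pancreatic transcripts in the ASNS levels of either animal was not tested.

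Genes of the amino acid shortage response and of serine synthesis were a separate list, of which 20 of 23 were tested and 0 passed. Their median difference was −0.14, with 7 above 0 and 13 below, where 55.1% of all probes were above 0. Per animal, the median was −0.42 and −0.27 in animals 23 and 24 and 0.17 in each of animals 19 and 20. The value of animal 23 rests on the 0 g array with the pancreatic transcripts, whose part in it was not tested. FGF21, a hepatokine of that response, stood at −5.56, −0.28, 1.26 and 0.03 at 0 g and at −5.24, 0.41, −2.36 and −5.13 at 4 g. It was not well above background on the 4 g array of animal 19, where its level is a bound. It was low in animal 19 at both doses and in animal 24 at 4 g, high in animal 20 at both doses, and lower at 4 g than at 0 g in animals 23 and 24. The mean difference was −1.94 (SE 1.02, adjusted limma p of 1), and the difference between the pairs, which did not pass adjustment either, was −4.89. With normexp background correction the mean difference was −1.04, and without the block and the 0 g array of animal 23 it was −1.14. ATF3, a stress transcription factor, was lower at 4 g in 4 of 4 animals, as 2.08% of all probes were, with a difference of −0.33 (SE 0.21). EIF2AK4, the kinase that senses uncharged transfer RNA, was higher in 4 of 4, as 3.17% of all probes were, with 0.45 (SE 0.25).

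Other genes of amino acid catabolism, 58 tested of 65 listed, had 41 mean differences above 0 and 17 below, a median of 0.09, and 0 that passed. Of all probes, 55.1% had differences above 0. Per animal, the median was −0.25, 0.12, 0.44 and 0.21 in animals 19, 20, 23 and 24. KYAT1, a kynurenine aminotransferase, stood at 1.01, 1.08, −0.11 and 0.16 at 0 g and at −0.35, 2.23, 2.87 and 3.36 at 4 g. At 4 g the levels of animals 20, 23 and 24 were above all 0 g levels, and that of animal 19 was below them. KYAT1 had a mean difference of 1.49 (SE 0.76, adjusted limma p of 1). KYAT3, a related aminotransferase, had a difference of 0.34 (SE 0.25). BCAT2, the mitochondrial branched-chain aminotransferase, had a difference of −0.77 (SE 0.49). It stood at −2.35, −0.90, −0.09 and −2.31 at 0 g and at −1.62, −2.30, −2.27 and −2.56 at 4 g. Its highest levels were on the 0 g array of animal 23, which held the pancreatic transcripts, and on the dim array of animal 20. Their part in the difference was not tested.

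Of 17 tested liver transcription factors and hormone receptors, 11 had mean differences above 0 and 6 below, with a median of 0.07, and 0 passed. Over all probes, 55.1% were above 0. The genes named here had the smallest p of dose in the list. ONECUT1, a hepatocyte transcription factor, was higher at 4 g in 4 of 4 animals, as 3.17% of all probes were. Its difference was 0.59 (SE 0.27). NR3C1, the glucocorticoid receptor, which acts on TAT and TDO2 in textbook accounts, had a difference of 0.30 (SE 0.25). FOXA3, a forkhead factor of hepatocytes, had one of −0.27 (SE 0.32) and was lower at 4 g in 3 of 4 animals.

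Between animals, over both doses, 0 of 44 enzymes and 0% of all probes passed adjustment in the F-test of limma. HAL had the clearest pattern, with animal means of 1.29, 1.25, −0.21 and 0.33 in animals 19, 20, 23 and 24. SDS was lowest in animal 19 at each dose. GNMT was highest on 3 arrays of animals 19 and 20, while the 0 g array of animal 19, at 0.57, lay within the range of animals 23 and 24.

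The share of enzymes that stood apart on the dim arrays was close to or under that of all probes. On these arrays 10 of 44 enzymes were below all other 6 arrays, where 19.7% of all probes were, and 5 of 44 were above all of them, against 24.4%. The 10 were HPD, KYNU, HAAO, GCSH, SARDH, MAT1A, CBS, HIBADH, GPT2 and GOT2, and the 5 were FTCD, DMGDH, GNMT, AHCY and DBT. Because 1 dim array was at 4 g and the other at 0 g, these genes had differences of opposite sign in animals 19 and 20. With brightness as a covariate the median difference of the enzymes was 0.18, and 0 of 44 passed. The GC content of the probes had a median of 45% in the 10 and 43.3% in the 5, and 45% over all 44 and over all tested probes. Over the 44 enzymes the median deviation from a gene's own mean was −0.10 and −0.07 on the dim arrays. It was −0.29 on the 0 g array of animal 23 and 0.30 on the 4 g array of animal 24, the lowest and highest of the 8.

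**Figure D4:**
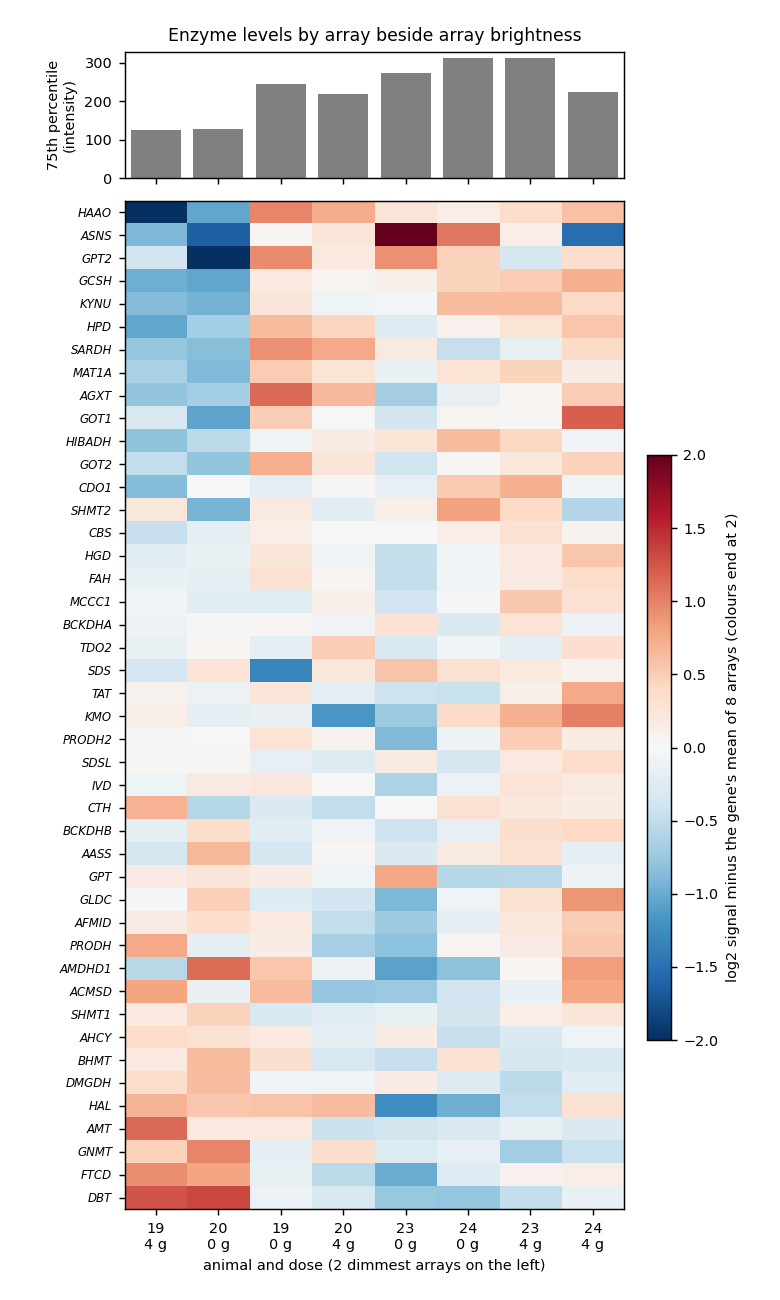
Upper panel, the 75th percentile of the processed signal of each array (bars from 0). Lower panel, log2 signal minus the gene's mean over 8 arrays for the 44 enzymes (rows, ordered by the difference between the dim arrays and the others) in each animal and dose (columns). The dim arrays on the left are blue for HAAO, GCSH and KYNU at the top and red for DBT, FTCD and GNMT at the bottom, and the 0 g array of animal 23 is below the gene's mean for 30 of the 44 enzymes.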

How the data were processed

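Liver RNA labelled with Cy3 was hybridised to 1-colour Agilent arrays, 4 at each dose. Per the file headers, the intensity values are the processed signals that Agilent Feature Extraction 11.0.1.1 gave, a linear brightness after background subtraction in which arrays were not scaled to each other. Version 9.5 is named in the submitters' processing notes. The authors' deposited series table holds log2 values that correlated at 1 with the log2 signal of their arrays, centred near the 75th percentile (column medians −3.04 to −2.84), and it served as an alternative.

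From the 15646 features of an array, 536 controls and, over all arrays, 48 outlier spots were left out, and 0 spots were saturated. Log2 of the processed signal minus the array's 75th percentile was averaged over spots of 1 probe. The depth of an array is its signal over background: 64.4% to 80.4% of probes were well above background, and the number of arrays limits the precision. Probe names came from accessions (11194 probes), current symbols (3085), synonyms (38) or the file (691), by a RefSeq table of another assembly used for names alone. Coordinates and probe sequences are those of the files.

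Files were read with data.table version 1.17.8 in R 4.3.3. A model with animal and dose as terms was fitted in limma 3.58.1 (lmFit and eBayes, 2-sided), so that each animal was a block. P-values were adjusted over 10985 probes by Benjamini-Hochberg, with a threshold of 0.05. The same fit gave the F-test between animals, and a dose by slide row term tested the pairs. All arrays shared 1 slide and 1 scan, so neither could be a batch. The pairing rests on the animal numbers in the labels. Deviations from the group means of the arrays of 1 animal correlated at −0.187, −0.178, 0.213 and 0.127 in animals 19, 20, 23 and 24. Scripts were tested on simulated data.

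The members and lists were chosen with earlier results of these data known. Named in full were, per pathway, the members with the smallest p of dose, those with 1 sign in all animals, those with the smallest p between animals, and ASNS. AMDHD1, HAAO, DBT, GPT2 and BCKDHA were added after their values had been seen. Other members are given by range. From each of the separate lists beside the members, the tested genes with the smallest p of dose were named. 1 gene of the list of liver transcription factors is not reported here. Alternatives changed the background correction, the normalization, the filter, the variance model, the block and the arrays used.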

Additional observations from a re-analysis of the deposited data

Results flagged for a closer look

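In each dose group of 4 arrays, the highest and lowest level of each enzyme was compared with the nearest other level by Dixon's ratio. Of 88 groups, 6 held a level that stood apart from the other 3, and chance alone gives about 1 in 20 groups, so 6 of 88 is close to that. HAAO at 4 g was −1.39 in animal 19, against a next value of 0.96, and that array was dim. SDS at 0 g was −5.74 in animal 19, against −4.15. GNMT at 0 g was 1.73 in animal 20, against 0.59, on the other dim array. BHMT at 4 g was 4.20 in animal 19, against 3.70. BCKDHA at 4 g was 3.07 in animal 23, against 2.74. GPT2 at 0 g was −6.90 in animal 20, against −4.30, and it was not well above background there. Of the 6, 4 lay on the dim arrays.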

How the results depend on the processing

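The alternatives left 0 of 44 enzymes past the adjusted threshold for dose, between animals or between pairs in every fit. Without the replicate block, 0 of 10985 probes and 0 enzymes passed for dose, with 103 probes at an unadjusted p under 0.05 and a member median of 0.15. Counts over all probes moved in 4 fits. For dose, 5 probes passed without the dim arrays and the block. Between animals, 1 passed without animal 19 (range 0 to 1 over the animals left out) and 1 with no dose term. Between the slide rows, 12 passed with normexp. In that normexp fit 2140 of 10985 probes had an unadjusted limma p under 0.05, against 108 in the main fit. The member median was 0.32, 0.16, 0.04 and 0.08 without animals 19, 20, 23 and 24, and 0.25 with array weights. Without animal 23 the median of all probes was 0.04 as well, so the gap between the enzymes and all probes was not seen there. With normexp the member median was 0.09, while the median of all probes fell from 0.03 to −0.05 and the share of probes above 0 from 55.1% to 36.1%. The mean of all tested probes of a gene was not run, since each member has 1 probe.

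Of the 44 enzymes, 26 changed the sign of their difference in animals 19 and 20 alone, 6 in animals 23 and 24 alone, 6 with array weights, 5 with normexp, 1 with quantile normalization, 6 without the block and the 0 g array of animal 23, 7 without the block and the dim arrays, and 4 with brightness as a covariate. The values below are those of the genes named in full, and the cause was not tested. In animals 19 and 20 alone they were TAT −0.12, FAH −0.10, AMDHD1 −1.16, FTCD −0.14, KMO −0.35, ACMSD −0.23, SHMT1 −0.092, GLDC −0.32, GCSH −0.041, SARDH −0.036, GNMT 0.017, BCKDHB −0.20, DBT −0.14, PRODH2 −0.12, GPT2 0.51, ASNS 0.48, KYAT1 −0.11 and FGF21 0.50. In animals 23 and 24 alone they were HAAO 0.27, SDS −0.29 and BCKDHA 0.075. With normexp they were AMDHD1 −0.052, SDS −0.14, SARDH −0.023 and BCKDHA 0.026, and with quantile normalization GPT2 0.13. With array weights they were HAAO 0.16, SDS −0.12 and BCKDHA 0.021. Without the block and the 0 g array of animal 23 they were AMDHD1 −0.23, BCKDHA 0.085, DBT −0.070 and GPT2 0.21, and without the block and the dim arrays HAAO 0.10, AMT −0.14, CTH −0.049, BCKDHA 0.014, ATF3 0.048 and FOXA3 0.13. With brightness as a covariate, chosen after seeing the data, they were HAAO 0.10, DBT −0.023 and GPT2 0.10. Leaving out each animal in turn gave −0.40 to 0.56 for AMDHD1, −0.022 to 0.79 for KMO, −0.81 to 0.78 for HAAO, −0.21 to 0.23 for SDS, −0.14 to 0.38 for AMT, −0.17 to 0.59 for GCSH, −0.39 to 0.70 for SARDH, −0.072 to 0.034 for BCKDHA, −0.25 to 0.76 for DBT, −0.56 to 0.050 for GPT, −0.89 to 0.33 for GPT2 and −0.53 to 0.036 for FOXA3. HAL, TDO2, MCCC1, PRODH and GOT1 stayed above 0 and BHMT and DMGDH below 0 in all 18 alternatives.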
